A study of Mus musculus with 8 samples.

Results

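Genes of DNA replication and mitosis were measured in the hearts of mice with autoimmune myocarditis that had been given either the lymphatic growth factor variant VEGF-C C156S or PBS. The set held 36 genes chosen by symbol, 13 of DNA replication and 23 of mitosis, and all 36 had values among the 18835 genes with values in the deposited table. Each library came from heart tissue of a male BALB/cAJcl mouse, 10 weeks old, and all animals of both groups had been immunized with cardiac myosin. The VEGF-C group (n = 4) received VEGF-C C156S at 1 µg per day into the peritoneum, starting on day 7 and ending on day 10 after immunization, the PBS group (n = 4) received PBS over the same days, and the hearts were taken in week 3. The series' title speaks of cardiac lymphatic endothelial cells, whereas the tissue in all 8 sample labels is heart. Cardiomyocyte markers were abundant in every library. Summed normalized counts of 8 markers ran from 2642170 to 3502230 in PBS and from 3527800 to 3992580 in VEGF-C. The values were therefore read as those of whole heart. Whole-heart values cannot tell fewer dividing cells apart from less of these RNAs per cell.

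Most cardiomyocytes of the adult heart no longer divide, while leukocytes, fibroblasts and endothelial cells can. Cells that enter the cycle first switch on genes that license replication origins, build nucleotides and copy DNA, a programme driven by E2F transcription factors. Later they switch on genes for chromosome condensation, spindle assembly and cytokinesis, driven through CCAAT boxes and a short element called CHR, which is bound by a complex of LIN proteins with B-MYB and FOXM1. RNAs of both kinds are widely read as markers of proliferating cells.

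Promoters are shown here because they carry the sequence difference between the replication and the mitotic genes. Of the 36 genes, 29 had a promoter window in RefSeq (build GRCm38.p6), 11 of replication and 18 of mitosis. Each window of 300 bases ran from 250 bases before the transcription start to 50 after it, and both strands were searched. The letters TTTGAA, the core of the CHR element, were found in 13 of 18 mitotic genes (72.2%) and in 1 of 11 replication genes, Mcm2. They were found in 20.2% of all 27025 genes with a window. TTTNNCGC, letters of the E2F site, were found in 7 of 11 replication genes (63.6%; Mcm3, Mcm5, Mcm6, Mcm7, Cdc6, Cdt1 and Tyms) and in 1 of 18 mitotic genes, Cdk1, against 5.93% of all genes. CCAAT was found in 16 of 18 mitotic genes (88.9%) and 8 of 11 replication genes (72.7%), against 41.1% of all genes. All 13 mitotic genes with TTTGAA also held CCAAT, a pair found in 7.97% of all genes. These are matches of letters and not measured binding sites, and matches of the 3 motifs can overlap.

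The 160 bases before the start are printed for 5 genes, with the matches to the 3 motifs on either strand in capitals, so that a match on the other strand reads as its reverse complement. Cdc20 (chr4:118437344-118437503 (minus strand)), Ube2c (chr2:164769769-164769928 (plus strand)) and Kif11 (chr19:37376222-37376381 (plus strand)) show CCAAT and TTTGAA close to the start of mitotic genes. Mcm5 (chr8:75109349-75109508 (plus strand)) shows the letters of an E2F site matched on both strands beside CCAAT, and Rrm2 (chr12:24708094-24708253 (plus strand)) shows CCAAT alone.
Cdc20: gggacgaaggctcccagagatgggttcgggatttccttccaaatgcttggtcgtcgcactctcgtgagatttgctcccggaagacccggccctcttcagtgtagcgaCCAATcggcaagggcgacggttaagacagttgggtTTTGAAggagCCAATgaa
Ube2c: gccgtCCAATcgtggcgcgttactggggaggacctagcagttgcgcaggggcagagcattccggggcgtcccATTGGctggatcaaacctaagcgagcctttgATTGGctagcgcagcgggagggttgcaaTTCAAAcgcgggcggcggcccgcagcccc
Kif11: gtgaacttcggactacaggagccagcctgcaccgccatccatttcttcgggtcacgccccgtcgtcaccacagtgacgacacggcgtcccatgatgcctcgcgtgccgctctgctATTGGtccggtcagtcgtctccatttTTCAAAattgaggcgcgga
Mcm5: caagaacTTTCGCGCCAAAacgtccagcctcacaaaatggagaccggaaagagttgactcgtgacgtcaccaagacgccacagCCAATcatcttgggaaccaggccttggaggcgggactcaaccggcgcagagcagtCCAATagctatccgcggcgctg
Rrm2: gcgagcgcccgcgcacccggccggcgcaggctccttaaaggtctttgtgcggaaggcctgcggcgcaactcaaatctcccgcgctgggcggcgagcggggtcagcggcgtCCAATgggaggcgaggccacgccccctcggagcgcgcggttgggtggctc

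The 2 treatments were compared over all genes first, to give the background. Values are read counts divided by a median-of-ratios factor per library (normalized counts), and differences are log2 values, VEGF-C minus PBS, on the log2(x + 4) scale with the standard error of the limma fit. Total reads per library ran from 61713842 to 76803952 in PBS and from 53679737 to 65230480 in VEGF-C, and each of the 36 genes had between 130 and 3062 reads in each library. Of all genes, 15.7% passed limma at a Benjamini-Hochberg adjusted p under 0.05 (2949 genes), 7.05% higher and 8.61% lower in VEGF-C, and the 4 values of one group did not overlap those of the other in 4336 genes.

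None of the 36 replication and mitosis genes passed the test between VEGF-C and PBS. The count was 0 of 13 replication genes and 0 of 23 mitotic genes by limma, against the 15.7% of all genes that passed, and limma-voom and the authors' deposited adjusted p also gave 0 of 36 (21.7% of all genes by the latter). At an unadjusted limma p under 0.05 there were 3, namely Rrm2, Cenpf and Cenpe, against 32.3% of all genes. The values of the 2 groups overlapped in every one of the 36, whereas among all genes VEGF-C lay wholly above PBS in 11.5% and wholly below in 11.6%. The exact two-sided permutation test over the 70 assignments of the 8 libraries can give p under 0.05 only where the groups do not overlap. That 0 of 36 reached it therefore follows from the overlap and is no separate result. The smallest p in this test was 0.0571, where 0.0286 is the smallest possible.

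The estimates lay on both sides of 0. Of the 36 differences 18 were positive and 18 negative, with a median of 0.01 on the log2 scale, and the median of all genes was 0.00. The replication genes had 9 positive and 4 negative differences with a median of 0.07, and the mitotic genes had 9 positive and 14 negative with a median of -0.05. All 36 of the 95% intervals, which are not adjusted for the number of genes, lay within a 2-fold change in either direction, and their outermost bounds were -0.83 and 0.65. For 29 of the 36 the interval also lay within a 1.5-fold change. When values were scaled by library totals in place of the median-of-ratios factors, the median over all genes moved by -0.19 and 13 of the 36 estimates changed sign. Scaled in that way, 2 mitotic genes passed limma, Mki67 at -0.57 (adjusted p = 0.0422) and Cenpe at -0.61 (adjusted p = 0.0372). Of all 18835 genes 3815 passed under this scaling, 243 higher and 3572 lower in VEGF-C.

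**Figure D1:**
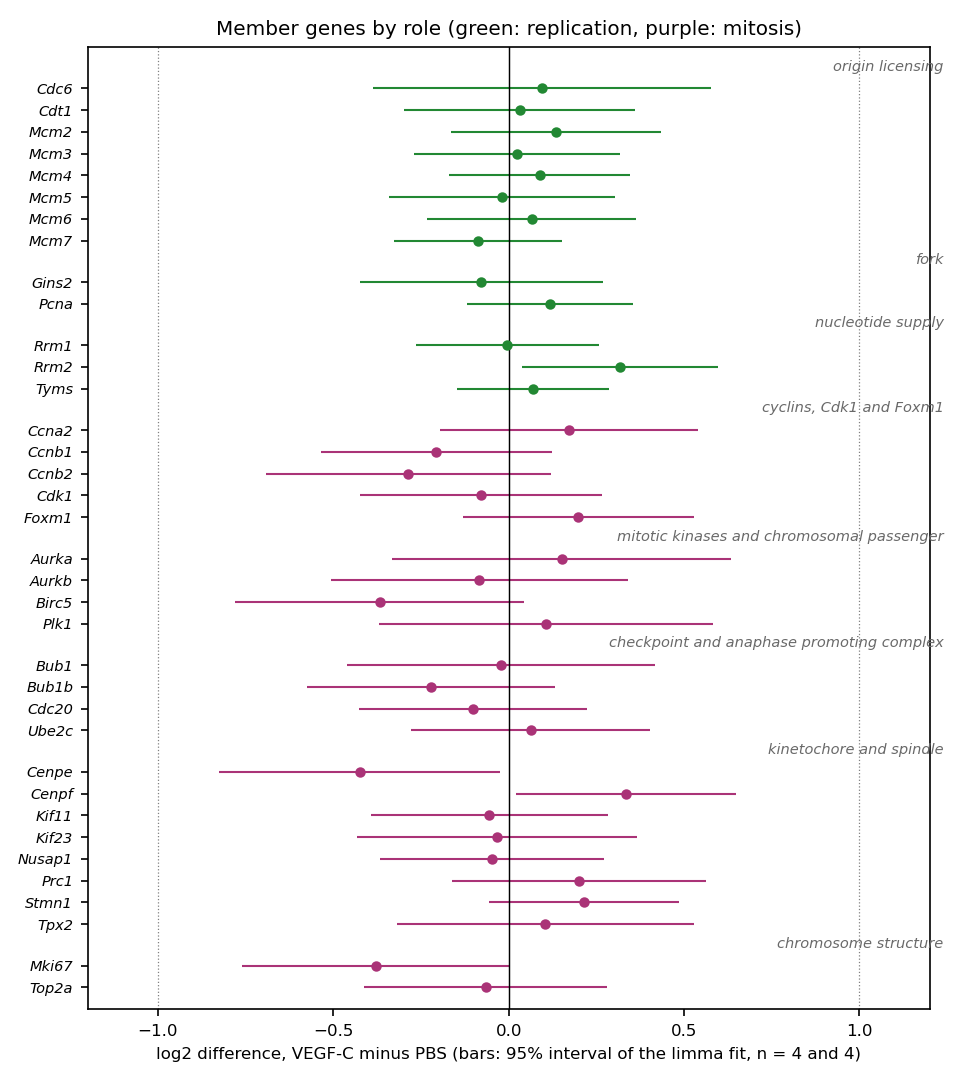
Log2 difference between VEGF-C and PBS (x axis) for the 36 genes, grouped by role (y axis); points are limma estimates, bars their 95% intervals, and dotted lines mark a 2-fold change. The intervals of Rrm2, Cenpf and Cenpe leave out 0, and none reaches a 2-fold change.

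The genes that license replication origins showed little difference between the groups. Cdc6 and Cdt1 load the MCM helicase onto origins, and Mcm2 to Mcm7 form its ring. The 6 MCM subunits measured here differed by between -0.09 (Mcm7) and 0.13 (Mcm2), each with a standard error from 0.11 to 0.15. Mcm2 had 1019, 1423, 1007 and 1081 normalized counts in PBS replicates 1 to 4, and 1299.9, 1177, 1441 and 1040.0 in VEGF-C replicates 1 to 4. PBS replicate 2 and VEGF-C replicate 3 were the high libraries, and the groups overlapped. Mcm5 had 1239.7, 1506, 1122 and 1227 in PBS and 1309, 1168, 1604 and 996 in VEGF-C, with its highest and its lowest value both in the VEGF-C group. Cdc6, the scarcest of the replication genes in normalized counts, had 169, 264, 175 and 182 in PBS and 225, 189.7, 288 and 151 in VEGF-C. Its difference of 0.10 ± 0.22 had a 95% interval from -0.39 to 0.58. Cdt1 differed by 0.03 ± 0.15, and its values overlapped in the same way.

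Of the fork proteins, Pcna is the sliding clamp of the polymerases and Gins2 a subunit of the replicative helicase. Pcna had 1619, 1733, 1703 and 1896 normalized counts in PBS and 1862, 1746, 2318 and 1672 in VEGF-C. Apart from VEGF-C replicate 3 the values of the 2 groups lay in the same range, and the difference was 0.12 ± 0.11. Gins2 differed by -0.08 ± 0.16 and had its highest value in PBS replicate 2 and its lowest in PBS replicate 4.

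Among the enzymes of nucleotide supply the 2 subunits of ribonucleotide reductase had estimates of different size, and neither passed limma. Rrm2, the subunit whose level follows the cell cycle, had 540.1, 612, 512 and 584 normalized counts in PBS and 755, 644, 841 and 586 in VEGF-C. Only VEGF-C replicate 4 fell within the PBS range. The difference was 0.32 ± 0.13, a ratio of 1.25 with a 95% interval from 1.03 to 1.51, which limma did not pass (adjusted p = 0.112). The exact permutation p was 0.0571, the smallest among the 36 genes. Rrm1, the large subunit, had 1864, 2174, 1878 and 2081 in PBS and 1849, 2291, 2278 and 1623 in VEGF-C, a difference of 0.00 ± 0.12. The difference between the 2 subunits was not tested. Tyms, which makes thymidylate, differed by 0.07 ± 0.10, and its 2 highest values, 753 and 759, were in VEGF-C replicates 1 and 2.

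The cyclins that drive mitosis, their kinase Cdk1 and the mitotic transcription factor Foxm1 gave estimates of both signs. Ccna2, which acts from S phase into mitosis, differed by 0.17 ± 0.17, and Foxm1 by 0.20 ± 0.15. The 2 B-type cyclins, partners of Cdk1 at mitotic entry, had negative estimates, -0.21 ± 0.15 for Ccnb1 and -0.29 ± 0.18 for Ccnb2. Ccnb2 had 502, 395, 459.8 and 434 normalized counts in PBS and 379.6, 369, 497 and 255 in VEGF-C. VEGF-C replicate 3 stood inside the PBS range and the other VEGF-C libraries below it. Cdk1 itself had 618, 786, 637 and 626 in PBS and 654, 591, 822 and 488 in VEGF-C, and differed by -0.08 ± 0.16.

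Mki67 and Top2a, both common markers of cycling cells, differed in how far VEGF-C libraries lay from PBS. Mki67, which coats mitotic chromosomes, had 2491, 2424, 2196 and 2105 normalized counts in PBS and 1951, 1736, 2377 and 1213 in VEGF-C. VEGF-C replicates 1, 2 and 4 lay below every PBS library and replicate 3 among them. The difference was -0.38 ± 0.17 and was not passed by limma (adjusted p = 0.158; exact permutation p = 0.114). Top2a, which untangles DNA before chromosomes separate, had 1802, 1712, 1639 and 1687 in PBS and 1565, 1487, 2361 and 1295 in VEGF-C, a difference of -0.06 ± 0.16. VEGF-C replicate 3 had the highest Top2a value of all 8 libraries, and the other VEGF-C libraries lay below all of PBS.

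The mitotic kinases Aurka, Aurkb and Plk1 differed by 0.15 ± 0.22, -0.08 ± 0.19 and 0.11 ± 0.21. Plk1, which acts from mitotic entry to cytokinesis, had 246, 202, 213 and 224 normalized counts in PBS and 245, 227, 359.6 and 160.2 in VEGF-C. Its VEGF-C range thus enclosed the whole PBS range. Birc5 (survivin), which works with Aurkb in the chromosomal passenger complex, had a lower estimate, with 579, 455, 454 and 392 in PBS and 416, 359, 444 and 253 in VEGF-C. Its difference was -0.37 ± 0.19 (limma adjusted p = 0.200).

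The spindle checkpoint genes and those of the anaphase promoting complex were also not passed. Bub1b, a checkpoint protein, had 486, 469.5, 419 and 417 normalized counts in PBS and 415, 439, 432 and 272 in VEGF-C, so that only VEGF-C replicate 4 stood well below PBS. Its difference was -0.22 ± 0.16, and leaving out VEGF-C replicate 4 reduced it to -0.06. Bub1 differed by -0.02 ± 0.20. Cdc20, the activator of the anaphase promoting complex, and Ube2c, its ubiquitin-conjugating enzyme, differed by -0.10 ± 0.15 and 0.06 ± 0.15. Both had their lowest value in VEGF-C replicate 4, with 359 and 276 normalized counts.

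The kinetochore pair Cenpe and Cenpf had estimates of opposite sign. Cenpe, a kinesin that moves chromosomes to the spindle equator, had 426, 335, 312 and 297 normalized counts in PBS and 231, 247, 344 and 203 in VEGF-C. VEGF-C replicates 1, 2 and 4 lay below PBS and replicate 3 within it. Cenpe differed by -0.43 ± 0.18 (limma adjusted p = 0.133; exact permutation p = 0.114). Cenpf, a large kinetochore protein, had 451, 570.3, 622 and 716 in PBS and 791, 683, 803 and 669.7 in VEGF-C, and differed by 0.33 ± 0.14 (limma adjusted p = 0.133; exact permutation p = 0.0857). Its lowest library was PBS replicate 1, the one with the highest Cenpe value. Within a library, log2 Cenpf minus log2 Cenpe was 0.08, 0.76, 0.99 and 1.26 in PBS and 1.76, 1.45, 1.21 and 1.70 in VEGF-C, so that the groups overlapped by 1 library.

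The other spindle genes gave smaller differences. The motor proteins Kif11 and Kif23, which push spindle poles apart and bundle the midzone, differed by -0.05 ± 0.15 and -0.03 ± 0.18, and the spindle proteins Nusap1 and Tpx2 by -0.05 ± 0.14 and 0.10 ± 0.19. Prc1, which crosslinks midzone microtubules, had 482, 504, 438 and 511 normalized counts in PBS and 497, 459, 797 and 524 in VEGF-C. Its difference of 0.20 ± 0.16 came to -0.02 without VEGF-C replicates 3 and 4. Stmn1 (stathmin), a microtubule destabilizer that non-dividing cells also express, differed by 0.21 ± 0.12.

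The 4 VEGF-C hearts differed among themselves in these genes more than the 4 PBS hearts did. The SD of the log2 values was larger in VEGF-C than in PBS for 32 of the 36 genes (88.9%), against 45.7% of all genes. Its median was 0.12 in PBS and 0.35 in VEGF-C for the mitotic genes, and 0.15 and 0.23 for the replication genes, while over all genes it was 0.19 and 0.18. VEGF-C replicate 3 was the highest of the 4 VEGF-C libraries in 31 of the 36 genes (21.0% of all genes), and replicate 4 the lowest in 32 of 36 (25.9% of all genes). Both held at once in 27 of 36 (75.0%), against 5.54% of all genes. The genes vary together within a library and are not independent observations, so no test was made of these counts.

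VEGF-C replicates 3 and 4 were singled out by their values in these same 36 genes. The choice itself raises their shares above those of all genes, here and in the counts above, so these shares are descriptive only. Replicate 3 exceeded replicate 4 in all 36 genes, against 47.9% of all genes. The median difference between these 2 hearts was 0.75 for the mitotic genes and 0.49 for the replication genes on the log2 scale, and -0.01 over all genes. Among all 8 libraries, VEGF-C replicate 3 had the highest value in 26 of 36 genes and VEGF-C replicate 4 the lowest in 26 of 36. Over all 18835 genes, VEGF-C replicate 3 was the highest in 1958 and VEGF-C replicate 4 the lowest in 2403. Summed over the 23 mitotic genes, normalized counts ran from 13177 to 14546 in PBS, and were 13601, 12953, 17735 and 10511 in VEGF-C replicates 1 to 4. Summed over the 13 replication genes they ran from 12386 to 14828 in PBS, and were 14274, 13557, 16222 and 11528 in VEGF-C. Replicates 1 and 2 of VEGF-C thus had summed values near or within the PBS range, and replicates 3 and 4 lay outside it on opposite sides.

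**Figure D2:**
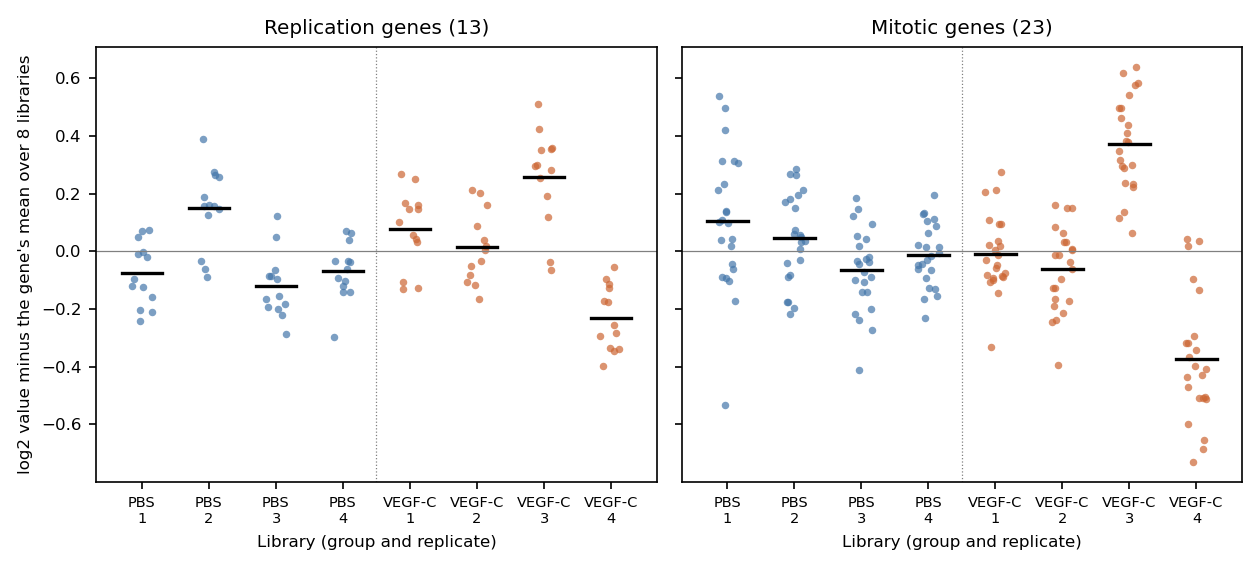
Log2 value of each gene minus its mean over the 8 libraries (y axis) in each library (x axis), for the 13 replication genes (left) and the 23 mitotic genes (right); points are genes and black bars their mean. In VEGF-C replicate 3 the means are 0.26 and 0.37, and in VEGF-C replicate 4 they are -0.23 and -0.38.

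Without VEGF-C replicates 3 and 4, a comparison chosen after their values were seen, 0 of 13 replication genes and 0 of 23 mitotic genes passed limma, with 896 of all genes passing. Leaving out each library in turn also gave 0 of 36 in each of the 8 fits, and the smallest limma adjusted p was 0.0572, for Cenpe. Of all 18835 genes, these fits passed from 1684 (without VEGF-C replicate 3) to 2906 (without PBS replicate 1), against 2949 with all 8 libraries. The sizes of the estimates depended on single libraries. Without VEGF-C replicate 4 the difference of Mki67 was -0.20 in place of -0.38, that of Birc5 -0.20 in place of -0.37, and that of Ccnb2 -0.12 in place of -0.29. Without VEGF-C replicate 3, Ccna2 stood at 0.0098 in place of 0.17, Prc1 at 0.03 in place of 0.20, Stmn1 at 0.10 in place of 0.21, Foxm1 at 0.11 in place of 0.20, and Ccnb2 at -0.43. Foxm1 was 0.09 without PBS replicate 3 and 0.30 without PBS replicate 2. Ccnb1 was -0.11 without VEGF-C replicate 2 and -0.32 without replicate 3, Ccna2 was 0.30 without VEGF-C replicate 4, and Cenpf was 0.21 without PBS replicate 1. The estimates of Rrm2 and Cenpe moved by less than 1.5 times in each of the 8 fits.

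Replication and mitotic genes also differed in which PBS library was high. PBS replicate 2 had the highest PBS value in 11 of 13 replication genes, and PBS replicate 1 in 14 of 23 mitotic genes but in 0 of 13 replication genes. Over all genes PBS replicate 1 was the highest in 28.8% and PBS replicate 2 in 24.9%. Marker lists with the highest mean log2 deviation in PBS replicate 1 were those of adipocytes (1.59), dendritic cells (0.88), NK cells (0.77) and B cells (0.60). The lowest in that library were erythroid (-0.94), plasma cell (-0.84), fibroblast (-0.57) and lymphatic endothelial (-0.45) markers. B cell markers stood higher still in PBS replicates 2 (1.08) and 4 (1.12). Adipocyte markers were also high in PBS replicates 2 (0.69) and 4 (1.12), and NK cell markers in PBS replicate 3 (0.52). The part of these cells in the mitotic values of PBS replicate 1 was not tested. The mean log2 value of the mitotic genes minus that of the replication genes was -0.61, -0.90, -0.74 and -0.74 in PBS and -0.88, -0.87, -0.68 and -0.94 in VEGF-C. The groups overlapped in this balance.

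Levels between genes were set side by side as normalized counts per kilobase of exon, with exon lengths from the GENCODE M21 annotation. The length was that of the merged exons of all transcripts of a gene, which lowers the value of genes with long rare exons. Pcna had the highest value at 758 per kilobase, followed by Stmn1 at 654 and by Mcm3, Mcm4 and Mcm5 at 374, 332 and 318. The lowest were Cenpf at 43.0, Cdc6 at 39.3 and Cenpe at 34.7. Mki67 stood at 205 and Top2a at 188. No test of this order was made.

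Markers of other cell types were set beside these values. Of the 8 cardiomyocyte markers 7 had positive differences and 1 passed limma, higher in VEGF-C. Their summed normalized counts, given above, did not overlap between the groups. The B cell markers were lower in VEGF-C, with 4 of 5 passing limma and summed normalized counts from 2511 to 4213 in PBS and from 693 to 1707 in VEGF-C. VEGF-C replicate 4, the library lowest in replication and mitosis genes, was also the lowest in B cell markers (mean log2 deviation -1.68), but VEGF-C replicate 3 was not high in them (-0.81). Of the monocyte and neutrophil markers 3 of 7 were lower by limma, with sums from 26879 to 50452 in PBS and from 17013 to 38860 in VEGF-C, and VEGF-C replicates 3 and 4 stood at -0.51 and -0.58. T cell markers (0 of 7 passing by limma, 1 at an unadjusted p under 0.05; sums from 2688 to 3904 and from 2745 to 3761) stood at 0.20 in VEGF-C replicate 3 and -0.13 in replicate 4. The 6 macrophage markers stood at -0.08 and 0.04 in these 2 libraries. The widest split between these 2 hearts was in the 4 adipocyte markers, at 1.29 in VEGF-C replicate 3 and -2.05 in replicate 4, the same direction as the replication and mitosis genes. The adipocyte markers were lowest in VEGF-C replicate 2 (-2.55), which was not low in those genes. All 4 had negative differences between VEGF-C and PBS (median -1.70, from -2.89 to -0.03). Of these, 0 passed limma and 2 had an unadjusted limma p under 0.05. Their sums, which weigh the most abundant gene most, were from 48101 to 55691 normalized counts in PBS and from 47036 to 53736 in VEGF-C. The 5 erythroid markers stood at 0.34 and -0.22 in VEGF-C replicates 3 and 4 and were highest in replicate 2 (1.84). None of the 84 marker genes was at 0 in every library at once, and values of 0 in single libraries were not counted. The part of these cells in the values of the replication and mitosis genes was not tested.

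**Figure D3:**
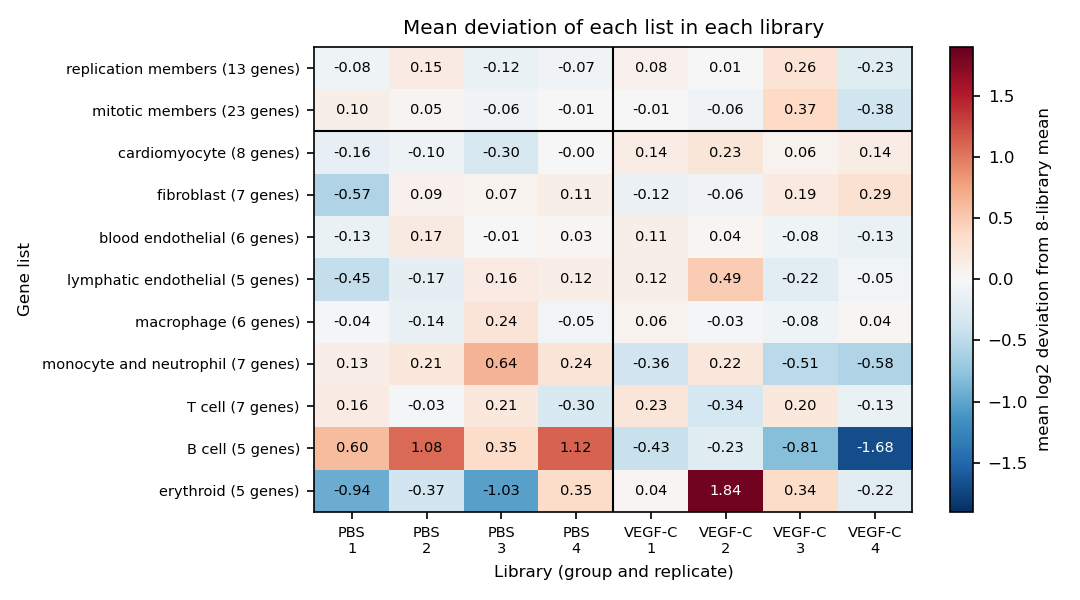
Mean log2 deviation from the 8-library mean (colour and printed value) of the replication and mitotic genes and of 9 of the 15 marker lists (rows) in each library (columns). Adipocyte markers, not drawn, stood at 1.29 in VEGF-C replicate 3 and -2.05 in replicate 4. VEGF-C replicates 3 and 4 differ in the upper 2 rows, while B cell markers are below the mean in all 4 VEGF-C libraries.

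Other genes of the cell cycle were read from 11 lists with 242 genes, all measured. By limma 22 of them passed, 11 higher and 11 lower in VEGF-C (9.09%, against 15.7% of all genes), and the groups did not overlap in 41 (16.9%, against 4336 of 18835 genes). Their median difference was -0.07, with 96 positive and 146 negative. VEGF-C replicate 3 was the highest and replicate 4 the lowest VEGF-C library in 65 of the 242 (26.9%). The pattern was also seen in lists near to the 36 genes. In the spindle, kinesin and cytokinesis list VEGF-C replicate 3 was the highest VEGF-C library in 19 of 27 genes (70.4%) and replicate 4 the lowest in 17 (63.0%), and their mean difference was 0.56. The mean difference was 0.45 in the kinetochore and centromere list and 0.41 in the mitotic entry, checkpoint and exit list. The SD was larger in VEGF-C than in PBS for 22 of 27 spindle genes (81.5%) and 20 of 24 entry genes (83.3%). In the anaphase promoting complex list it was larger in 5 of 15. Of the 22 calls, 7 held in each of the 8 fits that left out 1 library (Donson, Tk1, Cdk2, Btg2, Wee1, Hjurp and Spag5), and 15 were lost in at least 1 (limma adjusted p up to 0.125). Tk1, Cdk2 and Wee1 passed under all 18 alternatives. Scaled by library totals, 10 of the 11 higher calls were lost, and Wee1 was the 1 that passed.

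In the replication lists few genes passed. Of 21 genes for origin recognition and firing 1 fell, Donson, a replication fork factor (-0.48 ± 0.11, limma adjusted p = 0.0161), and the helicase component Cdc45 differed by 0.01 ± 0.14. Of 31 polymerase and fork genes 1 fell, Pold4, the small subunit of polymerase delta, by 0.52 ± 0.14. In nucleotide supply 1 of 14 fell and 1 rose. Tk1, thymidine kinase of S phase, had log2 values of 10.13, 9.87, 9.90 and 9.99 in PBS and 9.40, 9.37, 9.68 and 8.99 in VEGF-C. Its groups did not overlap, and it fell by 0.61 ± 0.14 (limma adjusted p = 0.0168). Shmt2, a mitochondrial enzyme of one-carbon metabolism, rose by 0.27 ± 0.07. Of 17 genes of replication stress and recombination, the helicase gene Blm fell by 0.56 ± 0.16.

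Among the 24 genes of the G1 to S step 4 rose and 1 fell. Cdk2, a kinase of S phase entry, fell by 0.45 ± 0.08 (limma adjusted p = 0.00691), with log2 values from 10.33 to 10.51 in PBS and from 9.91 to 10.12 in VEGF-C. The cyclins D1 and D3, partners of Cdk4 and Cdk6, rose by 0.51 ± 0.15 (Ccnd1, limma adjusted p = 0.0495) and 0.28 ± 0.08 (Ccnd3, 0.0460), both near the threshold and both lost with TMM factors. E2f6, a repressor of the E2F family, rose by 0.35 ± 0.08 and Tfdp2, a partner of E2F proteins, by 0.34 ± 0.09. The estimates for Ccnd2, Ccne1 and the activator E2f1 were 0.29 ± 0.11, -0.37 ± 0.19 and 0.11 ± 0.16, none passing.

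The arrest and mitotic entry genes held the 2 largest changes of the named genes. Wee1, the kinase that holds Cdk1 inactive, rose by 1.01 ± 0.15 (limma adjusted p = 0.00234), from 998 ± 161 normalized counts in PBS to 2019 ± 380.3 in VEGF-C (SD, n = 4 each). Its lowest VEGF-C log2 value, 10.73, lay above the highest PBS value, 10.25. Btg2, an antiproliferative gene that p53 induces, fell by 1.13 ± 0.26 (limma adjusted p = 0.0178). Its log2 values were 13.52, 13.76, 13.15 and 12.25 in PBS and between 11.94 and 12.10 in VEGF-C, so that PBS replicate 4 lay just above the VEGF-C group. Ccng1, another p53 target, rose by 0.48 ± 0.12, and Cdkn1a (p21), the inhibitor of cyclin-dependent kinases, differed by 0.14 ± 0.16 without passing. Of 19 arrest genes 1 rose and 1 fell in all.

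Of the other mitotic lists, 2 of 24 entry, checkpoint and exit genes rose and 1 fell. Lin54, a subunit of the complex that binds the CHR element, rose by 0.40 ± 0.09, and Bora, an activator of Plk1 and Aurka, fell by 0.52 ± 0.14, while Mybl2 (B-MYB) differed by -0.03 ± 0.25. The 31 kinetochore and centromere genes had a median of -0.20, with 26 negative estimates and 2 that passed, both lower. These were Hjurp, the chaperone of centromeric histone Cenpa (-0.35 ± 0.07, limma adjusted p = 0.0126), and Cenph (-0.86 ± 0.25). Cenpa itself differed by -0.18 ± 0.07 without passing, but passed with upper-quartile factors (-0.23, limma adjusted p = 0.0415) and with library totals (-0.37, limma adjusted p = 0.00472).

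Among 27 spindle, kinesin and cytokinesis genes, Spag5 and Kif2c fell by 0.66 ± 0.14 and 0.52 ± 0.15, and Kif2a, a related microtubule depolymerase found in neurons as well, rose by 0.25 ± 0.08. Of 15 genes of the anaphase promoting complex, Ube2s and Anapc1 rose by 0.24 ± 0.07 each (limma adjusted p = 0.0385 and 0.0477). Anapc1 and Kif2a (limma adjusted p = 0.0492) were near the threshold, and both were lost with TMM factors. Ube2s, Anapc1 and Kif2a were all lost with upper-quartile factors. Of 19 genes of condensin, cohesin and chromosome structure 0 passed by limma, with 4 at an unadjusted p under 0.05 and 1 by the authors' deposited adjusted p. The plot of differences by list shows the 36 genes beside these lists.

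The 15 calls that 1 library could end were as follows, each with the highest limma adjusted p of these fits. E2f6 (0.0559) and Lin54 (0.0583) no longer passed when VEGF-C replicate 3 was left out, and Shmt2 (0.0564) when VEGF-C replicate 1, 2 or 3 was. Pold4 (0.0771) failed without PBS 1 or 3 or VEGF-C 2, 3 or 4, Tfdp2 (0.0797) without PBS 2, 3 or 4 or VEGF-C 2 or 4, and Ccng1 (0.0684) without PBS 2 or 3 or VEGF-C 1, 3 or 4. Ccnd1 (0.125) passed only in the fits without PBS 2 or VEGF-C 2, Cenph (0.0915) only without PBS 2 or VEGF-C 3, and Bora (0.0823) only without PBS 2. Ccnd3 (0.114) passed only without VEGF-C 4, Kif2c (0.0853) and Blm (0.0990) only without VEGF-C 3, Ube2s (0.110) only without VEGF-C 1, and Anapc1 (0.121) only without PBS 1. Kif2a (0.117) passed in none of the 8 fits.

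**Figure D4:**
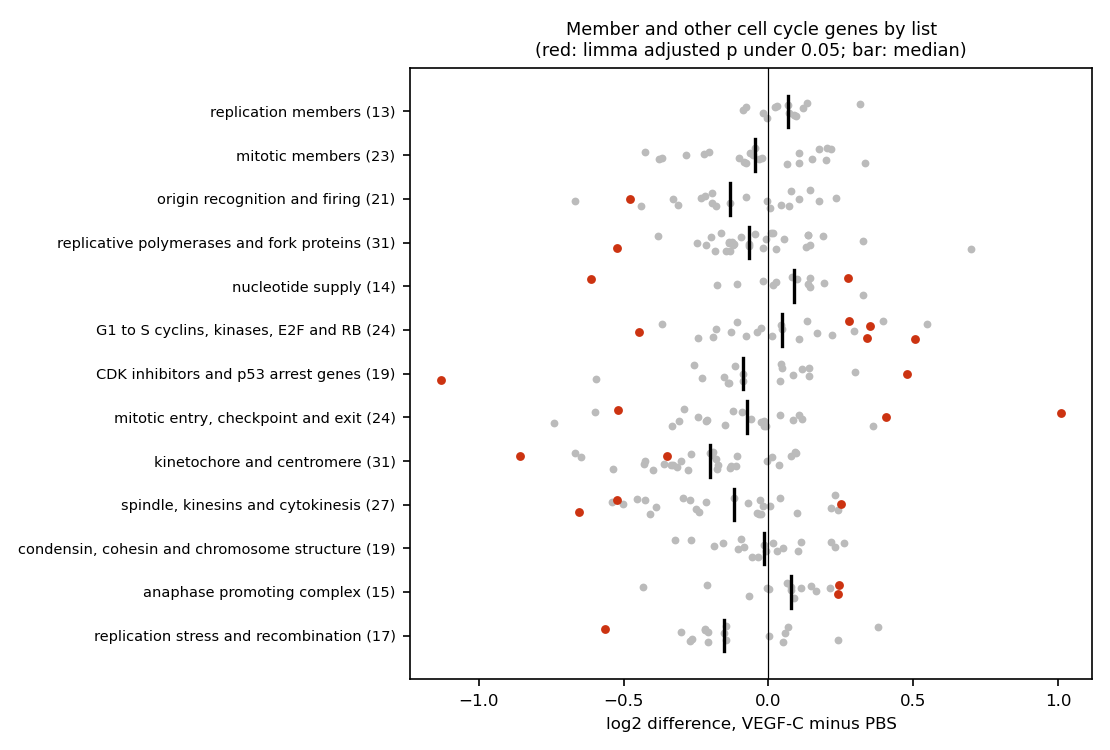
Log2 difference between VEGF-C and PBS (x axis) of each gene in the replication and mitotic genes and in 11 other cell cycle lists (y axis, number of genes in brackets); red points passed limma and black bars are medians. The upper 2 rows hold no red point, and Wee1 at 1.01 and Btg2 at -1.13 are the outermost red points.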

How the data were processed

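RNA was sequenced from heart tissue of 8 mice with a stranded mRNA kit on a NovaSeq instrument, per the labels' protocols. The submitters' processing notes name the build GRCm39, DESeq2 1.38.3, Subread 2.0.1 with featureCounts, STAR 2.7.10a and Trim Galore 0.6.10, with no settings and no strand option. The authors deposited log2 values, which read back as log2(x + 4) of counts divided by median-of-ratios factors: 100% of values in each library gave whole reads (tolerance 0.01). Their deposited p-values and fold changes were used only where named. The column numbers serve as replicate numbers and tie to no animal of the labels, and each column was counted as 1 animal. limma 3.58.1 (R 4.3.3) was fitted with a mean-variance trend to all 18835 genes, with Benjamini-Hochberg adjustment over all of them. A check on simulated data drew the genes independently, with the spread of PBS in both groups. It therefore does not cover genes that vary together or the wider VEGF-C spread of the 36 genes. Exact permutation tests used scipy 1.17.1. The genes and lists were chosen with earlier results of these data known. The text names all 36 genes, up to 3 passing genes per direction of each other cell cycle list by smallest p-value, and 9 genes fixed by name. Alternatives were other scalings, pseudocount 1, a filter at a mean of 10 normalized counts, voom, quality weights, a robust fit and leaving out libraries.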

Additional observations from a re-analysis of the deposited data

Results flagged for a closer look

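In 10 of 134 groups of 4 values checked, 1 library stood far from the other 3 by Dixon's test for 4 values, which chance alone meets in about 1 of 20 groups. Values are on the log2 scale. Among the replication and mitosis genes, PBS replicate 1 was high for Bub1 (7.95, others 7.55 to 7.55) and Aurka (8.49, others 7.79 to 7.85). PBS replicate 2 was high for Cdk1 (9.63, others 9.28 to 9.32) and Cdc6 (8.07, others 7.44 to 7.54). VEGF-C replicate 3 was high for Foxm1 (9.41, others 9.02 to 9.07), and VEGF-C replicate 4 was low for Bub1b (8.11, others 8.71 to 8.79). Among the other cell cycle genes, PBS replicate 2 was high for E2f1 (9.13, others 8.69 to 8.76) and low for Lin54 (8.80, others 8.92 to 8.94), PBS replicate 3 was low for Shmt2 (11.58, others 11.69 to 11.70), and VEGF-C replicate 4 was low for Ccnd3 (12.23, others 12.44 to 12.48).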

How the results depend on the processing

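In the 18 alternatives, 0 of 13 replication genes and 0 of 23 mitotic genes passed, except that 2 mitotic genes passed with library totals. Over all genes, leaving out 1 library gave 1684 (without VEGF-C replicate 3) to 2906 passing in all and 591 to 1268 higher; without VEGF-C replicates 3 and 4 there were 896, with 235 higher and 661 lower. Library totals gave 243 higher and 3572 lower, and upper-quartile factors 797 higher. Estimates that changed sign were all short of the threshold before and after. With library totals these were Ube2c (-0.13), Ccna2 (-0.018), Tpx2 (-0.086), Aurka (-0.038), Plk1 (-0.082), Pcna (-0.073), Tyms (-0.12), Cdc6 (-0.092), Cdt1 (-0.16), Mcm2 (-0.057), Mcm3 (-0.17), Mcm4 (-0.10), Mcm6 (-0.12), Cdkn1a (-0.051), E2f1 (-0.084) and Cdc45 (-0.18). With upper-quartile factors they were Cdt1 (-0.024), Mcm3 (-0.032) and Cdc45 (-0.048). With quality weights they were Bub1 (0.085), Top2a (0.023), Kif11 (0.0056), Kif23 (0.022), Nusap1 (0.0062), Mcm5 (0.029) and Mybl2 (0.058), and in the authors' deposited table Bub1 (0.0029), Kif23 (0.0057), Rrm1 (0.0077) and Mybl2 (0.015). Without VEGF-C replicates 3 and 4 they were Prc1 (-0.016), Gins2 (0.0020), Rrm1 (0.045), Cdt1 (-0.0030), Mybl2 (0.021) and Cdc45 (-0.056). Leaving out 1 library, the ranges that crossed 0 were Bub1 -0.18 to 0.12, Cdc20 -0.17 to 0.018, Ube2c -0.022 to 0.22, Top2a -0.24 to 0.046, Cdk1 -0.21 to 0.041, Kif11 -0.20 to 0.042, Kif23 -0.20 to 0.12, Nusap1 -0.16 to 0.059, Tpx2 -0.058 to 0.29, Aurka -0.018 to 0.32, Aurkb -0.22 to 0.073, Plk1 -0.089 to 0.29, Rrm1 -0.072 to 0.094, Cdc6 -0.059 to 0.24, Cdt1 -0.082 to 0.12, Mcm3 -0.066 to 0.12, Mcm5 -0.14 to 0.091, Mcm6 -0.0073 to 0.19, Mcm7 -0.14 to 0.013, Mybl2 -0.21 to 0.19 and Cdc45 -0.066 to 0.10. The cause of these changes was not tested. No paired analysis was possible because the column numbers tie to no animal and the labels give no number shared between the groups. Each of the 36 genes had at least 130 reads in each library, and 4 animals a group limit the precision.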
